A study of Mus musculus with 6 samples.

Results

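The first response of a gonadotrope-like cell line to activin was read by setting the activin array of 1 h against the vehicle array of 1 h. The comparison covered 22813 of 45037 probe sets, those whose mean linear signal over all 6 arrays of the series reached a fixed filter value, 7.28 on the log2 scale and close to the median of an array. They named 11500 genes, of which 5062 had more than 1 such probe set, called sister probe sets here, and 6438 had 1. Each gene was read from its brightest probe set, and the log2 ratio of activin over vehicle was taken from the deposited linear signals. The cells were Lbeta T2 (LβT2), a mouse pituitary line with features of a mature gonadotrope. Both flasks of the comparison had stood for 16 h in medium free of serum and phenol red. One then received recombinant human activin A at 30 ng/ml for 1 h, and the other received vehicle for 1 h. The arrays of 2 h and 6 h, 1 with activin and 1 with vehicle at each time, came from cells handled the same way and are used below as separate readings. The line is a single transformed cell model, and with 1 array per treatment and time no difference has a replicate check, a standard error or a test. A signal measures RNA in a whole culture, so fewer cells of a kind and less RNA per cell cannot be told apart.

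Activin is a dimer of inhibin beta subunits and a member of the TGF-beta family. It binds type II receptors that switch on a type I receptor kinase, which phosphorylates Smad2 and Smad3. These enter the nucleus with Smad4 and act on target genes, and some of the earliest targets, such as Smad7 and Skil, encode proteins that damp the same pathway. In gonadotropes activin raises synthesis of follicle-stimulating hormone, whose beta subunit is encoded by Fshb.

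The deposited signals had a trimmed mean of 500 on every array and medians between 151 and 166.4. The line carried its defining transcripts at 1 h: Cga, the common alpha subunit of the gonadotropins, read 13431.8 with activin and 11888.7 with vehicle, and Lhb, the beta subunit of luteinizing hormone, 764.5 with activin and 724.7 with vehicle. Fshb was at or near background, with 9.7 with activin and 11.1 with vehicle at 1 h. Of 23 gonadotrope genes with a probe set, 18 passed the filter, and their summed signal was 79362.4 with activin and 74589.1 with vehicle. Of 12 markers of other pituitary cells 5 passed it, with a summed signal over the 11 that had a probe set of 2617.2 with activin and 2628.7 with vehicle. Of 13 markers of fibroblasts, endothelium and blood 6 passed it, with a summed signal over 12 of 3458.8 with activin and 3346 with vehicle. Prl of lactotropes, Gh of somatotropes, Col1a1 of fibroblasts and Ptprc of blood cells were below the filter. Markers that passed it included Drd2 (779.1 with activin and 889.2 with vehicle), Crhr1 (631.9 with activin and 508.7 with vehicle) and Tshb (475.5 with activin and 437.4 with vehicle) of other pituitary cells. From endothelium and blood they included Cdh5 (964.1 with activin and 989.4 with vehicle), Pecam1 (700.7 with activin and 527.3 with vehicle) and Csf1r (489.3 with activin and 574.5 with vehicle). The other markers that passed it were dimmer. Col1a2 of fibroblasts read 199.5 with activin and 199.3 with vehicle, Kdr 249 and 204.6, and Adgre1 182.3 and 240.6. Of the other pituitary markers, Pomc read 224.9 with activin and 229.6 with vehicle, and Hesx1 161.3 and 146. Their part in the differences below was not tested. One control RNA, 18S ribosomal RNA, stood apart on the activin array of 1 h. Its probe set at the 5′ end read 12201.8 there, against 610.1 on the vehicle array of 1 h and between 190.3 and 1171.1 on the other 4. Its probe sets for the middle and the 3′ end were 3.89-fold and 3.01-fold higher with activin at 1 h. The 32 control probe sets past the filter that were not for 18S had activin over vehicle folds between 0.692 and 1.95, with a median of 1.09. The part of the 18S signal in the differences below was not tested.

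Among genes outside the vehicle range with both signals of 1 h at or above the filter value, the 5 highest ratios were those of the chemokine scavenging receptor gene Ackr3 (4.32-fold), the transposon-derived gene Zbed5 (3.47-fold), the Smad co-repressor gene Skil (3.17-fold), the co-repressor gene Irf2bp2 (2.98-fold) and the cytokine signalling inhibitor gene Socs3 (2.87-fold). The inhibitory Smad genes Smad6 and Smad7 were 2.58-fold and 2.34-fold higher. In all, 980 probe sets (4.3%) were at least 1.5-fold higher and 772 (3.38%) at least 1.5-fold lower. Counted by the brightest probe set of each gene, 283 genes (2.46%) were higher and 351 (3.05%) lower, a total of 634. Vehicle arrays set against each other, with no activin on either side, gave 411 genes past 1.5-fold between 2 h and 1 h, 498 between 6 h and 1 h and 423 between 6 h and 2 h. Vehicle arrays alone thus gave counts between 411 and 498. The SD of the log2 ratios over genes was 0.31 for activin against vehicle at 1 h and between 0.26 and 0.28 for the vehicle pairs. Of the 283 higher genes, 213 lay above all 3 vehicle arrays, as did 24.7% of all genes, and 174 had both signals of 1 h at or above the filter value. Of the 351 lower genes, 322 lay below all 3 vehicle arrays, as did 38.1% of all genes, and 249 had both signals at or above the filter value. Just inside the threshold on the higher side stood Klf3 at 1.50207-fold, and just outside it Pwwp2a at 1.4989-fold.

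Of the genes whose products restrain Smad signalling, some were higher and others were not. Skil, which encodes the Smad co-repressor SnoN, read 2999.3, 2023.3 and 1423.9 on the activin arrays of 1, 2 and 6 h, against 947.3, 924.3 and 1134.6 on the vehicle arrays. Its activin signal was above every vehicle signal at all 3 times and largest at 1 h, where the ratio was 3.17-fold. Smad7, an inhibitory Smad that blocks the type I receptor, read 972.6, 914.3 and 688.7 with activin, against 416.4, 416.4 and 605.4 with vehicle, a 2.34-fold difference at 1 h. Its sister gave a signal of 885.2 in activin and 87.8 in vehicle cells at 1 h, at least 5.71-fold with the vehicle signal raised to the filter value. Smad6, the inhibitory Smad of the BMP branch, had 978.5, 1159 and 733.9 with activin, against 380, 368.9 and 544.7 with vehicle, and was 2.58-fold higher at 1 h. No activin signal of Smad6 or of the brighter Smad7 probe set overlapped the vehicle signals. Spsb1, an adaptor of a ubiquitin ligase that acts on the TGF-beta type II receptor, read 740.3, 1219.7 and 638.2 with activin, against 396.8, 425.1 and 377.1 with vehicle. It was 1.87-fold higher at 1 h, and its ratio was larger at 2 h (1.52 on the log2 scale) than at 1 h (0.90). The co-repressor gene Ski, a relative of Skil, read 1026.5, 931 and 981.9 with activin, against 1220.9, 1194.6 and 1385.3 with vehicle, a log2 ratio of −0.25 at 1 h. Smurf1 and Smurf2, which encode ubiquitin ligases that act on Smads and receptors, had log2 ratios of −0.17 and −0.09 at 1 h. Their activin signals of 1 h, like that of Ski in its brightest probe set, lay below all 3 vehicle arrays, as did 38.1% of all genes. For Smurf2, 1 of 3 probe sets had a log2 ratio of 0.89, and the sister probe set of Ski had 0.22.

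A second set of genes, not specific to Smads, was as high. Irf2bp2, a partner of the repressor IRF2, read 3711.1, 3457.5 and 2506.2 with activin, against 1244.9, 1599.2 and 1424.9 with vehicle, and its 3 probe sets gave 2.98-fold, 2.12-fold and 2.01-fold at 1 h. Socs3, which inhibits cytokine receptors, read 1376.5, 977.9 and 438.9 with activin, against 479.2, 550.3 and 398.5 with vehicle, and its 3 probe sets gave 2.87-fold, 2.2-fold and 1.8-fold at 1 h. All 3 probe sets of both genes were thus past 1.5-fold, and for Socs3 the activin signal at 6 h lay within the range of the vehicle arrays. Ackr3 had 1 probe set, which read 1632.7, 1336.1 and 702.4 with activin, against 377.7, 260.8 and 375.3 with vehicle (4.32-fold at 1 h). Zbed5, a gene derived from a DNA transposon, had 1 probe set, which read 852.1, 965.8 and 568.3 with activin, against 245.8, 250.8 and 220.8 with vehicle (3.47-fold at 1 h). Neither overlapped between treatments at any time. Rflnb, which encodes an actin-regulating refilin and was picked out after its values were seen, read 6937.8, 6355.3 and 5061.7 with activin, against 2636.1, 2357.3 and 2948.4 with vehicle. Its brightest probe set was 2.63-fold higher at 1 h, while the lowest of its 3 probe sets had a log2 ratio of 0.15.

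**Figure D1:**
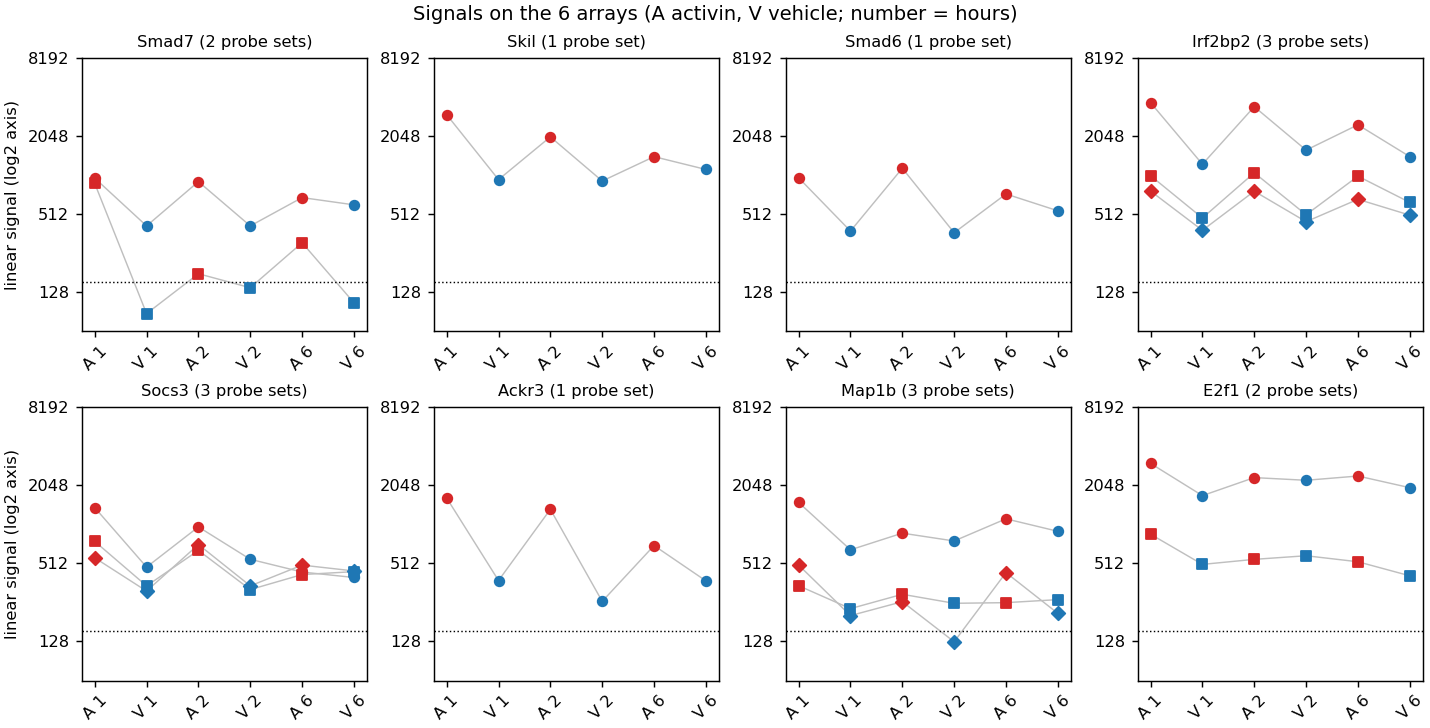
Linear signals (log2 axis) of 8 genes on the activin (A, red) and vehicle (V, blue) arrays of 1, 2 and 6 h; each grey line is 1 probe set, circles are the brightest, and the dotted line is the filter value. Skil, Smad6, Irf2bp2 and Ackr3 were higher with activin at 1 and 2 h, whereas the brightest probe sets of E2f1 and Map1b were 1.77-fold and 2.32-fold higher at 1 h and near vehicle at 2 h.

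The promoters below are those of the 4 genes with the highest ratios at 1 h among genes with every probe set higher and 24 genes chosen with earlier results known, so their high ratios are how they were chosen. Each is the RefSeq window of assembly GRCm38.p6, with 250 bases before and 50 after the annotated start, 5′ to 3′ on the strand of the gene, and capitals mark a match to a searched motif. Skil had no entry in the table used here.
Ackr3 (chr1:90203730-90204029, plus strand): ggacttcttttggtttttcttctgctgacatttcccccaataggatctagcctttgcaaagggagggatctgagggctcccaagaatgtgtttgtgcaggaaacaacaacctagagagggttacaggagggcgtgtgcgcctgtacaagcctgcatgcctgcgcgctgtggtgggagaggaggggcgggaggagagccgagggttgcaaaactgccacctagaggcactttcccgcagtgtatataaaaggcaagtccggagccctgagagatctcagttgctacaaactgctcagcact
Zbed5 (chr5:129895473-129895772, plus strand): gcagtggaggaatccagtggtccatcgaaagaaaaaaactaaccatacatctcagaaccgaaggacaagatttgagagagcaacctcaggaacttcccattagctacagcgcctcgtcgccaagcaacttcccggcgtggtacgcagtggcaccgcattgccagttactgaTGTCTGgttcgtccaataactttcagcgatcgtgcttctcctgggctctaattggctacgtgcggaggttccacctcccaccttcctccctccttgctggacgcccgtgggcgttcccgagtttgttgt
Irf2bp2 (chr8:126593937-126594236, minus strand): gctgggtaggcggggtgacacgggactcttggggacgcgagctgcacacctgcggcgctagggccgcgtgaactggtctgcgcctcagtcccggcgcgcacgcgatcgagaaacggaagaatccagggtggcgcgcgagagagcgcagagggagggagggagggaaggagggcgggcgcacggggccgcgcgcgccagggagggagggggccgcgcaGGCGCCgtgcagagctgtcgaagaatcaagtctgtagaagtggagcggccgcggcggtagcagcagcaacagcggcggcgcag
Socs3 (chr11:117969317-117969616, minus strand): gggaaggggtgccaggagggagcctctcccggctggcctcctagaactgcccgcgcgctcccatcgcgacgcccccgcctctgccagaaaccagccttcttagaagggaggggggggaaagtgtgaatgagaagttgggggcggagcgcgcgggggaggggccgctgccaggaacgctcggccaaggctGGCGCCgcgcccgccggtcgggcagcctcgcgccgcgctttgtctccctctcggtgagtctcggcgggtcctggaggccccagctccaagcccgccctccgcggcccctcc
The motifs searched, on both strands, were GTCTAGAC and CAGACA (Smad boxes), GGCGCC (a GC-rich Smad site), TGACGTCA (a cyclic AMP response element) and TGANTCA (an AP-1 site). The Ackr3 window held none. The Zbed5 window held CAGACA once, as TGTCTG on the gene strand, a motif present in 21% of 27025 promoters and in 15.5% of the 9330 promoters of measured genes. The Irf2bp2 and Socs3 windows each held GGCGCC once, which 12% of all promoters and 21.9% of those of measured genes hold. Of the 206 higher genes with a promoter, 17% held CAGACA, 18.9% GGCGCC, 0.485% GTCTAGAC, 3.4% TGACGTCA and 6.8% TGANTCA. Among measured genes GTCTAGAC was found in 0.247%, TGACGTCA in 3.34% and TGANTCA in 4.68%. These shares were not tested against each other. A match is a run of letters and no evidence of binding.

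Genes with every probe set past 1.5-fold the same way were few. Among genes with several probe sets, the brightest was at least 1.5-fold higher in 76. Of these, 27 had another past it and 41 had all log2 ratios above 0. The brightest was at least 1.5-fold lower in 84, of which 10 had another past it and 45 had all under 0. Over all genes with several probe sets, 999 had every ratio above 0 and 1165 every ratio under 0. Of the 5062 genes with several probe sets, 15 (0.296%) had every one at least 1.5-fold higher with activin at 1 h, and 9 (0.178%) had every one at least 1.5-fold lower. The 15 were Smad7, Cap1, Map1b, Socs3, Irf2bp2, Kif1a, Rnf103, Sdc4, Spsb1, Id2, Ypel2, Atf7ip2, E2f1, Map3k21 and Gkn3. Sdc4, a heparan sulfate proteoglycan of the cell surface, read 2025.2, 1284.6 and 631.9 with activin, against 956.1, 770.4 and 775.1 with vehicle, so that its difference of 1 h was absent at 6 h. In its sister, with 513.4 with activin and 546.2 with vehicle at 2 h, the difference was already absent at 2 h. Id2, a helix-loop-helix inhibitor, read 556.5, 380 and 448.8 with activin, against 301.6, 294.1 and 271.2 with vehicle, without overlap, and its 2 probe sets gave 1.85-fold and 1.82-fold at 1 h. Map3k21, a mixed-lineage kinase, read 556.3, 676.8 and 562.3 with activin, against 309.7, 374.2 and 428.3 with vehicle. E2f1, Map1b, Kif1a and Gkn3 had log2 ratios between −0.02 and 0.20 at 2 h in their brightest probe sets. E2f1, a transcription factor of S phase entry, read 3017.7, 2346.5 and 2413.2 with activin, against 1703.7, 2237.3 and 1961.9 with vehicle, and its 2 probe sets had log2 ratios of 0.07 and −0.09 at 2 h. Map1b, a microtubule-associated protein, read 1509.4, 875.3 and 1128.6 with activin, against 651.1, 761.8 and 904.5 with vehicle. Its 3 probe sets gave 2.32-fold, 2.45-fold and 1.5-fold at 1 h, and the activin signal of 2 h in the brightest fell inside the range of the vehicle arrays. At 2 h the 3 probe sets had log2 ratios of 0.20, 0.23 and 1.03, so 1 dimmer probe set kept a difference. Kif1a, an axonal kinesin, and Gkn3, a gastrokine, had ratios of 0.19 and −0.02 on the log2 scale at 2 h in their brightest probe sets. Gkn3 read 380, 351.1 and 393 with activin, against 223, 356 and 307.8 with vehicle, so its vehicle array of 1 h held the low signal.

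**Figure D2:**
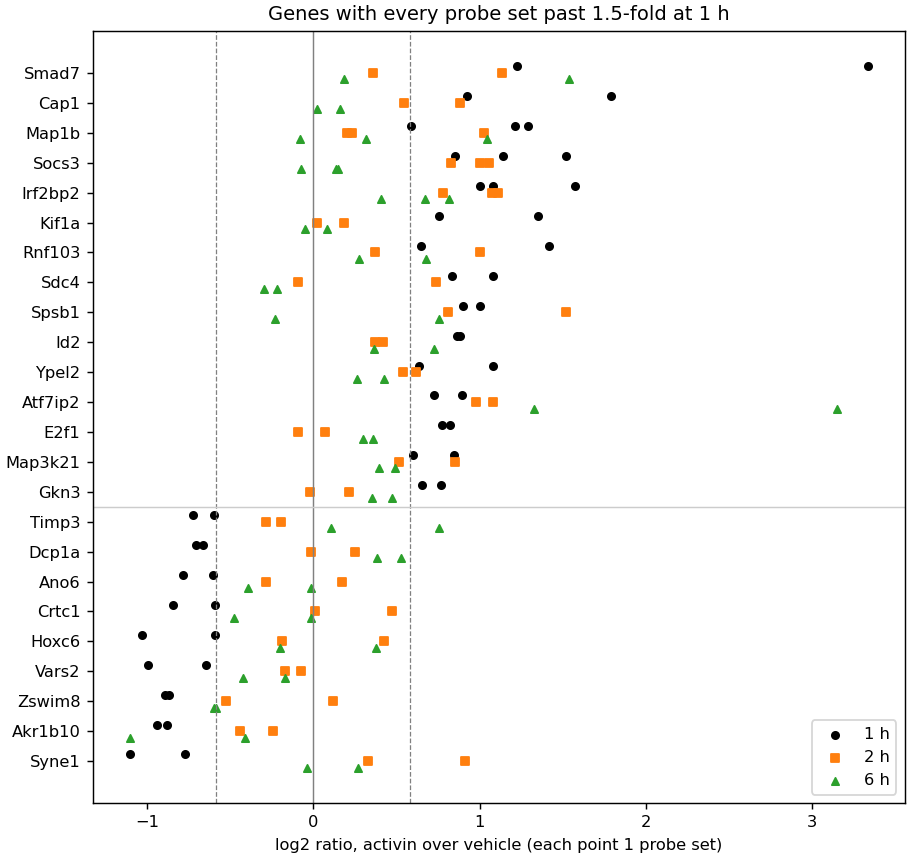
Log2 ratio of activin over vehicle for every probe set of the 24 genes whose probe sets all passed 1.5-fold the same way at 1 h (black circles), with the ratios of 2 h (orange squares) and 6 h (green triangles); dashed lines mark 1.5-fold. Of the 15 upper genes, 14 had a brightest probe set above vehicle at 2 h, as against 5 of the 9 lower genes below it.

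The 9 genes with every probe set lower were Syne1, Akr1b10, Zswim8, Vars2, Hoxc6, Crtc1, Ano6, Dcp1a and Timp3. Akr1b10, an aldo-keto reductase, read 695.1, 963.1 and 889.2 with activin, against 1277.3, 1139.3 and 1182 with vehicle, and was 1.84-fold lower at 1 h. Every activin signal of Akr1b10 was below every vehicle signal. Ano6, a phospholipid scramblase, read 934.7, 1497.9 and 1610.8 with activin, against 1610.4, 1820.6 and 1623 with vehicle. Crtc1, a coactivator of CREB, read 372.2, 583.1 and 491.9 with activin, against 668.5, 578 and 683.5 with vehicle. In the brightest probe sets of Ano6 and Crtc1 the activin array of 1 h held the lowest of the 6 signals. In the dimmer probe set of Ano6 both arrays of 1 h were low, with 268.1 with activin and 406.7 with vehicle, against 720.2 to 945.2 on the other 4. The activin array of 1 h held the lowest of the 6 signals in 8 of these 9 genes, and the highest in 11 of the 15 with every probe set higher. Over all genes past 1.5-fold it held the highest signal in 152 of 283 and the lowest in 285 of 351, genes that were chosen on its ratio. The vehicle array of 1 h held the lowest signal in 148 of the 283 and the highest in 150 of the 351.

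The arrays of 2 h, which share no sample with those of 1 h, gave a separate reading. Of the 283 genes higher at 1 h, 164 (58%, exact binomial 95% interval 52% to 63.8%, which treats genes as independent) were above vehicle at 2 h, where 44.2% of all genes were. At least 1.5-fold higher at 2 h were 59 of them (20.8%), against 2.75% of all genes. Of the 351 genes lower at 1 h, 205 (58.4%) were below vehicle at 2 h, where 55.7% of all genes were, and 28 (7.98%) were at least 1.5-fold lower, against 2.91%. These shares depend on signal, since dim genes passed 1.5-fold more often at 2 h whatever they read at 1 h. At mean log2 signals under 8, 17 of 129 lower genes (13.2%) were at least 1.5-fold lower at 2 h, where 10.4% of all genes of that signal were. Between 8 and 9 the count was 10 of 115 (8.7%), against 4.64%, and between 9 and 10 it was 0 of 73, against 0.949%. Between 10 and 11 it was 1 of 30 (3.33%), against 0.638%, and above 11 it was 0 of 4, against 0.0877%. Of the higher genes, 17 of 142 (12%) under 8 were at least 1.5-fold higher at 2 h, against 6.48% of all genes of that signal. Between 8 and 9 the count was 15 of 70 (21.4%), against 2.99%, and between 9 and 10 it was 16 of 39 (41%), against 2.31%. Between 10 and 11 it was 9 of 25 (36%), against 1.92%, and above 11 it was 2 of 7 (28.6%), against 1.01%. These shares were not tested against each other. With both signals of 1 h at or above the filter value, 115 of 174 higher genes were above vehicle at 2 h and 152 of 249 lower genes were below it. Of the 15 genes with every probe set higher, 14 were above vehicle at 2 h and 8 were at least 1.5-fold so. Of the 9 with every probe set lower, 5 were below vehicle at 2 h and none was at least 1.5-fold so.

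The most extreme ratios belonged mostly to dim probe sets. Of the 12 highest ratios among named genes outside the range of the vehicle arrays, 5 had both signals of 1 h at or above the filter value: Ackr3, Zbed5, Skil, Irf2bp2 and Socs3. The other 7 were Dmbx1, Sting1, Doxl1, Myo1h, Fbxw19, Hoxa3 and Cacna1a, each with its vehicle signal of 1 h under the filter value. Fbxw19, of the F-box family, gave 498.8 with activin and 150.6 with vehicle at 1 h, but 115.2 with activin and 278.4 with vehicle at 2 h. Sting1, the adaptor of cytosolic DNA sensing, read 306.5, 393 and 360.7 with activin, against 72.1, 213.4 and 223 with vehicle, and was at least 1.98-fold higher at 1 h with the vehicle signal raised to the filter value. Of these 12 genes 6 were on the same side at 2 h, all 6 by at least 1.5-fold. Over all genes, 44.2% were above vehicle at 2 h and 2.75% at least 1.5-fold higher. The highest ratio of any brightest probe set, at least 5.02-fold, was that of Smo, the signal transducer of the Hedgehog pathway, with 778.5 with activin and 143.7 with vehicle at 1 h. Its vehicle signals of 643.4 at 2 h and 913.7 at 6 h put the activin signal inside their range.

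On the lower side 1 of the 12 lowest ratios, that of Dclk2, had both signals at or above the filter value. Dclk2, a doublecortin-like kinase of microtubules, read 156.7, 363 and 317.4 with activin, against 496.4, 422.7 and 414.3 with vehicle, while its sister probe set gave 220.9 with activin and 222.5 with vehicle at 1 h. Cfap61, a cilia and flagella gene, read 70.2, 110.4 and 806.8 with activin, against 887.4, 473.2 and 306.3 with vehicle. It was at least 5.73-fold lower at 1 h and 2.63-fold higher at 6 h, and its sister had a log2 ratio of 0.06 at 1 h. Sisters of both genes thus did not share the difference. The other 10 were Cpa3, Kcnk12, Brsk1, Wdfy4, Cfp, Adamtsl3, Smim27, Tspan5, Rag2 and Zfp688, with activin signals between 40.6 and 71.5. Of the 12, 6 were below vehicle at 2 h, where 55.7% of all genes were, and 2 were at least 1.5-fold lower there, against 2.91%.

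**Figure D3:**
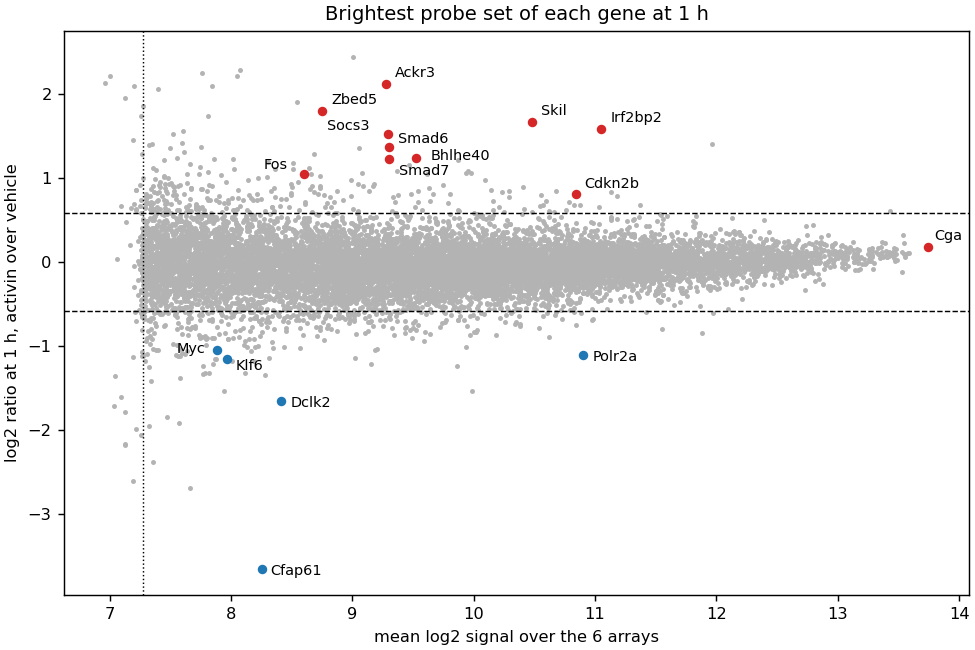
Log2 ratio of activin over vehicle at 1 h against the mean log2 signal over the 6 arrays for the brightest probe set of 11500 genes; dashed lines mark 1.5-fold and the dotted line the filter value. Named genes are red where higher with activin (Skil at 1.66) and blue where lower (Polr2a at −1.12), and the spread narrows toward bright signals.

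Among bright genes, several had their lowest signal on the activin array of 1 h. Polr2a, the largest subunit of RNA polymerase II, had 1 probe set, which read 1048.2, 2096.8 and 1860.6 with activin, against 2273.4, 2310.7 and 2308.7 with vehicle, 2.17-fold lower at 1 h. Samhd1, a nucleotide hydrolase picked out after its values were seen, read 2398.3, 4243.7 and 3716.4 with activin, against 4329, 4386.2 and 4035.3 with vehicle. Its brightest probe set was 1.81-fold lower at 1 h, while the highest of its 4 probe sets had a log2 ratio of 0.04. Prrc2a, also picked out after its values were seen, read 2792.9, 4412.7 and 4244.5 with activin, against 4281, 4290.9 and 4382.9 with vehicle. In all 3 genes the activin signal returned close to the vehicle signals at 2 h. Myc, a transcription factor that promotes growth, was not close to vehicle at 2 h: it read 163.6, 187.2 and 170.6 with activin, against 338.6, 323.8 and 300.8 with vehicle. All 3 activin signals of Myc were below all 3 vehicle signals, as were those of Polr2a. Myc was 2.07-fold lower at 1 h and 1.73-fold lower at 2 h.

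Gene lists were described by how many measured members passed 1.5-fold at 1 h and by the median log2 ratio, which was −0.04 over all genes. The lists were written with earlier results of these data known, so their counts and medians are a description and no independent evidence. Of 31 listed Smad targets of activin and TGF-beta, 15 were measured, 6 were higher and 1 lower, with a median of 0.33. Over all genes the shares were 2.46% higher and 3.05% lower. The 6 were Skil, Smad7, Spsb1, Bhlhe40, Klf10 and Cdkn2b. Bhlhe40, a helix-loop-helix repressor, read 1255.8, 559 and 961.2 with activin, against 535.3, 420.1 and 1058.8 with vehicle. Its 2.35-fold difference at 1 h was followed by values that overlapped. Klf10, a TGF-beta-inducible zinc finger repressor, read 1808, 1201.4 and 1112.5 with activin, against 1000.5, 968.5 and 893.2 with vehicle (1.81-fold at 1 h). Cdkn2b, the cyclin-dependent kinase inhibitor p15, read 1869.5, 2722.2 and 3116.1 with activin, against 1065.9, 1553.7 and 1438.8 with vehicle (1.75-fold at 1 h). Klf10 was highest with activin at 1 h and Cdkn2b at 6 h, and neither overlapped between treatments. Inhbb, the activin beta-B subunit, stood just under the threshold at 1 h, with 3788.4 with activin and 2589 with vehicle (1.46-fold), and its sister was 1.63-fold higher. The lower member was Mycbp, a Myc-binding protein, 1.59-fold lower in its brightest probe set and between −0.66 and 0.23 on the log2 scale over its 4.

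BMP targets, which answer to Smad1 and Smad5, had 8 of 15 members measured, 5 higher and 0 lower, with a median of 0.74. These were Smad6, Smad7, Id2, Id3 and Hey1. Id3, a helix-loop-helix inhibitor, gave 276.2 with activin and 153.8 with vehicle at 1 h, at least 1.78-fold, but 139.5 with activin and 198.7 with vehicle at 6 h. Hey1, a Hairy-related repressor, gave 173.5 with activin and 112.2 with vehicle at 1 h, at least 1.12-fold. Id1, which read 567.6 with activin and 452.4 with vehicle, was 1.25-fold higher, and Id4, with 460.3 with activin and 550 with vehicle, was 1.19-fold lower. Genes listed as short-lived repressors of the Hes, Kruppel-like and related families had 19 of 25 measured, 7 higher and 1 lower, with a median of 0.37. The 7 were Irf2bp2, Bhlhe40, Hes1, Klf10, Klf5, Klf9 and Klf3. Hes1, a repressor of neurogenic genes, read 576.5, 624.3 and 456.1 with activin, against 314.1, 321.6 and 352.7 with vehicle, without overlap. The lower one was Klf6, listed there though a zinc finger activator, with 135.3 with activin and 302.9 with vehicle, at least 1.95-fold lower. Several genes sit in more than 1 of these 3 lists, so their counts are not independent. All 3 lists were written with earlier results of these data known.

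**Figure D4:**
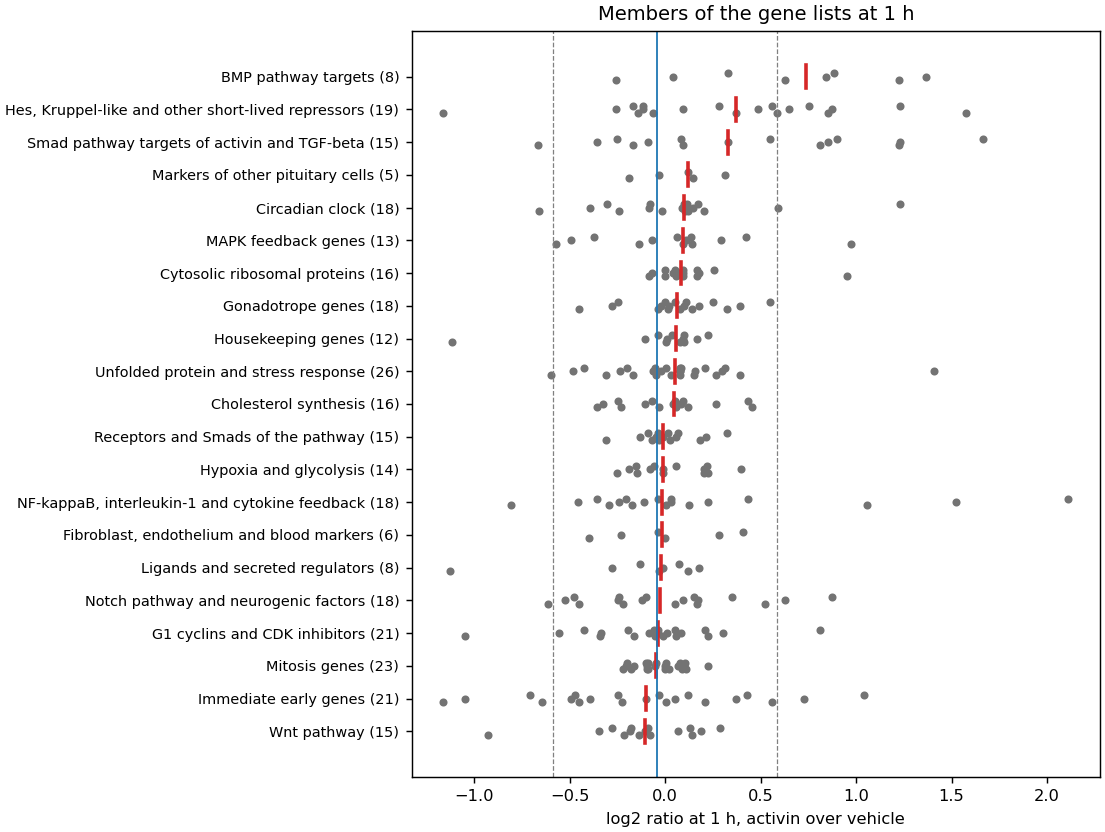
Log2 ratio of activin over vehicle at 1 h for the measured members of 21 gene lists (grey points, 1 per gene, number of members in brackets), with the list median as a red bar; the blue line is the median of all genes at −0.04 and dashed lines mark 1.5-fold. The medians of BMP targets (0.74), short-lived repressors (0.37) and Smad targets (0.33) lie furthest to the right.

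The receptors and Smads that carry the signal themselves had ratios between −0.31 and 0.32 on the log2 scale, and 0 of 15 measured members passed 1.5-fold. Over all genes 2.46% were higher and 3.05% lower, so a count of 0 among 15 says little about these members. Smad2, a mediator of the activin signal, read 3242.2 with activin and 3444.3 with vehicle, and Bmpr2, a type II receptor, read 3133.7 with activin and 2502.6 with vehicle. Immediate early genes were divided, with 2 of 21 measured members higher and 4 lower, against 2.46% and 3.05% of all genes, and a median of −0.10. Fos, a component of AP-1, read 695.8, 477.7 and 337 with activin, against 337.7, 339.4 and 265 with vehicle (2.06-fold at 1 h), and Nr4a2, an orphan nuclear receptor, was 1.66-fold higher with 358.8 with activin and 216.4 with vehicle, inside the range of the vehicle arrays, since vehicle at 6 h read 402.4. The lower members were Klf6, Myc, Srf and Ier3, the last with both signals of 1 h under the filter value. Srf, the factor that binds serum response elements, read 540.5, 666.6 and 764.4 with activin, against 881.3, 798.7 and 782.5 with vehicle (1.63-fold lower at 1 h). Egr1, the zinc finger factor that mediates the response of Lhb to gonadotropin-releasing hormone, gave 406 with activin and 555.4 with vehicle at 1 h, where both were above the other 4 arrays (between 242.5 and 314.6). MAPK feedback genes had 1 of 13 higher, Dusp2, a MAP kinase phosphatase, with 886 with activin and 451.8 with vehicle (1.96-fold). Its relative Dusp1 was 1.41-fold lower, with 552.6 with activin and 776.8 with vehicle.

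Genes of cytokine and interleukin-1 signalling had 3 of 18 members higher, 1 lower and a median of −0.02. Over all genes 2.46% were higher and 3.05% lower. Besides Ackr3 and Socs3, the third was Irak2, a kinase of interleukin-1 signalling, with 718.8, 981.6 and 766.4 with activin, against 345.6, 416.1 and 318 with vehicle (2.08-fold at 1 h). The lower one was Socs2, at 511.4 with activin and 895.3 with vehicle in its brightest probe set, although its 3 probe sets ranged from −0.81 to 1.48. Its dimmer probe sets were both above vehicle, with log2 ratios of 1.48 and 0.22 at 1 h and 2.16 and 1.18 at 2 h. Lzts1, a leucine zipper gene outside the lists, matched Irak2 in having no overlap: it read 1348.3, 1747.5 and 1358.1 with activin, against 646.2, 709.5 and 711.2 with vehicle. Notch pathway genes had 2 of 18 higher (Hes1 and Hey1) and 1 lower (Maml1, a Notch coactivator, 1.53-fold), with a median of −0.02. Wnt pathway genes had 1 of 15 lower (Nkd1, with 113.6 with activin and 215.9 with vehicle, at least 1.39-fold) and a median of −0.11. The activin signal of Nkd1 lay inside the range of the vehicle arrays, since vehicle at 6 h read 74.3. Clock genes had 2 of 18 higher, 1 lower and a median of 0.10. The higher ones were Bhlhe40 and, in its brightest probe set only, Rora. The 5 Rora probe sets lay between −0.09 and 0.59 on the log2 scale. The lower one was Nr1d1, with 455 with activin and 719.7 with vehicle, inside the range of the vehicle arrays, since vehicle at 2 h read 426.6.

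Among genes that define the gonadotrope 0 of 18 passed 1.5-fold at 1 h, with a median of 0.06 and ratios between −0.45 and 0.55. Over all genes 2.46% were higher and 3.05% lower. Counts of 0 or 1 in this list and those below therefore say little about their members. Gnrhr, the receptor of gonadotropin-releasing hormone, read 2724.8 with activin and 2688.2 with vehicle. Nr5a1, the nuclear receptor SF-1, read 3023.9 with activin and 3586.9 with vehicle. No member passed 1.5-fold among mitosis genes (23 measured, ratios between −0.22 and 0.22), genes of hypoxia and glycolysis (14), cholesterol synthesis (16), markers of other pituitary cells (5) and markers of fibroblasts, endothelium and blood (6). The list of G1 cyclins and inhibitors of cyclin-dependent kinases had 1 of 21 higher (Cdkn2b) and 1 lower (Myc, a transcription factor and neither of these). Stress response genes had 1 of 26 higher (Ddit3, 194.9 with activin and 73.4 with vehicle, at least 1.26-fold) and 1 lower (Ppp1r15a, 471.9 with activin and 714.2 with vehicle). The activin signal of Ddit3 lay inside the range of the vehicle arrays, since vehicle read 263.1 at 2 h and 240.8 at 6 h. Ligands had 1 of 8 lower (Bmp7, 92.5 with activin and 202 with vehicle, at least 1.30-fold). Cytosolic ribosomal proteins had 1 of 16 higher (Rps27, 232.9 with activin and 120.4 with vehicle, at least 1.5-fold) and a median of 0.08. Housekeeping genes had 1 of 12 lower, Polr2a.

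The direction of the 1 h counts depended on which probe set stood for a gene. Brightest probe sets were lower slightly more often than higher, with 283 higher and 351 lower, but among their 8325 dimmer sisters 542 (6.51%) were higher and 254 (3.05%) lower. At 2 h the dimmer sisters gave 320 higher and 305 lower, and at 6 h 393 and 329. The excess of higher dimmer sisters at 1 h was present at matched signals. At mean log2 signals between 8 and 9, 6.44% of dimmer sisters were higher and 3.22% lower, against 3.04% and 4.99% of brightest probe sets. Between 9 and 10, 4.99% of dimmer sisters were higher and 1.57% lower, against 1.48% and 2.77% of brightest probe sets. Set against the median of the other 5 arrays, the activin array of 1 h had 429 dimmer sisters at least 1.5-fold above it, while the other arrays had between 86 and 239. The same array held the bright 18S control, and its part in this excess was not tested. At 2 h, 367 of the 542 higher dimmer sisters (67.7%) were again above vehicle, where 46.2% of all dimmer sisters were, and 113 (20.8%) were at least 1.5-fold higher, against 3.84%.

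**Figure D5:**
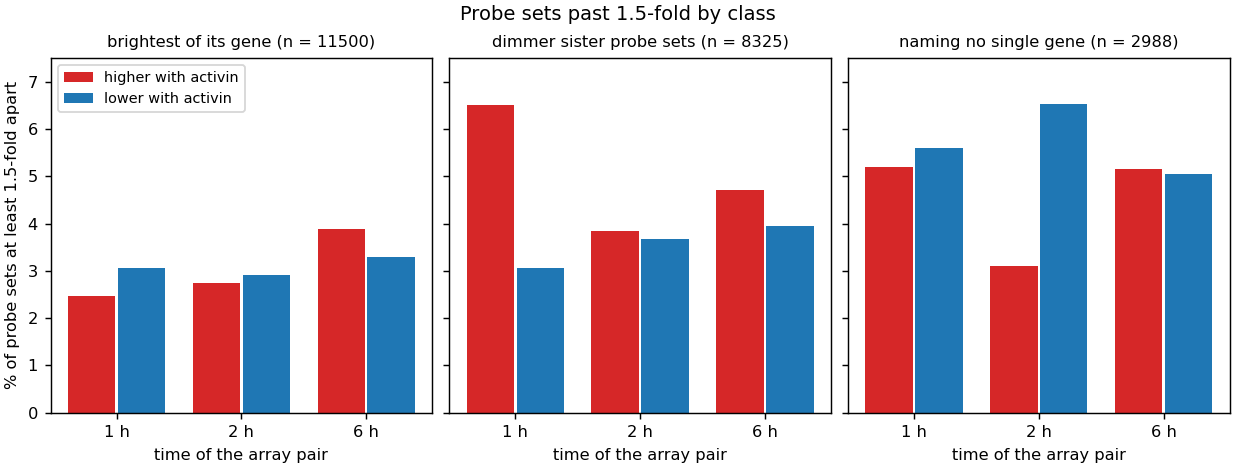
Percent of probe sets at least 1.5-fold higher (red) or lower (blue) with activin at 1, 2 and 6 h, for the brightest probe set of each gene, its dimmer sisters, and probe sets naming no single gene. Dimmer sisters at 1 h are higher in 6.51% and lower in 3.05%, whereas brightest probe sets at 1 h are higher in 2.46% and lower in 3.05%.

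Within genes the sisters often differed in whether they passed 1.5-fold. At least 1 probe set was 1.5-fold higher in 538 of the 5062 genes (10.6%) and at least 1 was 1.5-fold lower in 324 (6.4%), with 24 genes holding both. In 462 genes a dimmer probe set was higher while the brightest stayed under 1.5-fold, and in 240 a dimmer one was lower. Rbm39, a splicing factor, gave 1362.6 with activin and 424.8 with vehicle at 1 h in a dimmer probe set (3.21-fold), where its brightest read 3225.1 with activin and 2769.2 with vehicle. That dimmer probe set was between 399.2 and 547 on the 4 arrays of 2 h and 6 h, so the activin array of 1 h stood alone. Atrx, a chromatin remodeller, behaved alike, with 877.9 with activin and 310.3 with vehicle in a dimmer probe set, and 4626.3 with activin and 4507.6 with vehicle in its brightest. Gas2l3, a linker of actin and microtubules, had a dimmer probe set of 1573.6, 624.3 and 626.1 with activin, against 384.2, 259 and 359.2 with vehicle, so this difference was present at every time. Its brightest was 1.34-fold higher at 1 h. Agap1, a regulator of Arf GTPases, had a dimmer probe set of 616, 383 and 295.7 with activin, against 161.6, 171.7 and 182.3 with vehicle, while its brightest had a log2 ratio of −0.07 at 1 h. Both kinds, seen at 1 h alone and seen at every time, were therefore among the dimmer probe sets.

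The authors' deposited table for 1 h gives 47 genes, 34 higher and 13 lower, under a heading that counts 347 genes, and it was made from these arrays, so its agreement with them is no independent evidence. Of the 47, 38 were measured here, 4 were below the filter and 5 were not analysed here. In the listed direction, 30 of the 38 brightest probe sets were on the same side and 9 were past 1.5-fold, while 26 genes had at least 1 probe set past it and 6 had every one. Among the 30 genes with several probe sets, the brightest passed in 6, any in 23 and every one in 3. The genes of the authors' deposited table with several probe sets were thus mostly past 1.5-fold in a dimmer probe set and not in the brightest. The authors' deposited table gives Map3k12, a kinase of the JNK pathway, 2.71-fold. Here its dimmer probe set was 3.14-fold higher (911.8 with activin and 290.6 with vehicle) and its brightest read 978.9 with activin and 1121.1 with vehicle. For Gsk3b, a kinase of Wnt and insulin signalling, the authors' deposited table gives 1.74-fold, and 1 of 6 probe sets passed here. For Smad7 the authors' deposited table gives 3.94-fold, between the ratios of the brighter probe set and the dimmer one. Ackr3 and Skil are not among the 47. Another list, the authors' deposited table of genes past 1.2-fold at all 3 times, gives Ackr3 3.07-fold at 1 h, and the signals gave 4.32-fold. The same list of the authors' deposited table gives Skil 2.24-fold at 1 h, and the signals gave 3.17-fold.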

How the data were processed

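The samples were 6 RNA preparations of Lbeta T2 cells, 1 per treatment and time, each labelled with biotin and hybridised to 1 mouse Affymetrix array. The values are linear signals per probe set, in the unit intensity, which the authors deposited; per the submitters' processing notes the program was GCOS 1.4. Its scaling settings are not given in the sources, but each array had a mean of 500 with 2% of values trimmed at each side. The authors also deposited a list of genes for 1 h with signed folds, held here as a score with lower genes below 0; per the file headers it required 1.5-fold and a signal difference of 100. A second deposited list required 1.2-fold at all 3 times, per the file headers.

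Of 45101 probe sets, 64 were controls. One gene was named by the array annotation for 34945, several for 932 and none for 9160; symbols were updated through the RefSeq table of GRCm38.p6. Ratios were taken with a pseudocount of 0, the filter was a mean linear signal over the 6 arrays of at least 7.28 on the log2 scale, and a difference was counted from 1.5-fold. A fold with a signal under that value was computed with the signal raised to it and is written as at least that fold. Of the probe sets kept, 305 passed the filter only through the 1 h arrays, 57 of them at least 1.5-fold higher with activin and 14 lower. No test was made.

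Named genes were the 12 highest and 12 lowest ratios outside the vehicle range with clone names passed over, genes with all probe sets past 1.5-fold, 24 fixed genes, and the 3 highest and 3 lowest members of 21 lists (325 of 472 entries measured). Genes picked out after their values were seen are marked in the text. Members and lists were chosen with earlier results of these data known. The counting steps were run on simulated arrays with large changes set exactly in bright probe sets. Recovery of these changes was fixed by that setting, so the run checks the code only. Changes in dim probe sets and false calls were not examined. Python 3.11.15, pandas 2.3.3, numpy 2.4.6, scipy 1.17.1 and matplotlib 3.10.9 were used. The number of arrays limits the precision.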

Additional observations from a re-analysis of the deposited data

Results flagged for a closer look

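The 18S ribosomal RNA control at the 5′ end gave 12201.8 on the activin array of 1 h, against 610.1 on the vehicle array of 1 h. It is singled out because it lies outside the genes compared and is far above the vehicle arrays. The probe set for the middle of the molecule read 1388.8 with activin and 356.8 with vehicle, and that for its 3′ end 894.3 with activin and 297.6 with vehicle. The ratio of the 5′ to the 3′ probe set of Actb was 0.85 in activin and 0.812 in vehicle cells, and that of Gapdh 1.26 with activin and 1.24 with vehicle.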

How the results depend on the processing

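Without replicates every count rests on 1 pair of arrays, and thresholds and filters move it. At the 70th percentile as filter 272 probe sets were higher and 210 lower, 88 genes higher and 135 lower, and every probe set agreed in 7 higher genes and 1 lower gene; with no filter the counts were 6154, 4820, 1729, 1563, 115 and 63, and at 2-fold 246, 153, 69, 65, 2 and 0. A pseudocount of 50 gave 496 lower probe sets, 232 lower genes and 2 lower genes with every probe set, and median centring gave 5 of these last. The share of higher genes above vehicle at 2 h was 86.4% at the 70th percentile, 46% with no filter and 72.1% with the mean of the 3 vehicle arrays in place of the vehicle array of 1 h. The share of lower genes below vehicle at 2 h was 47.7% at 2-fold and 68.5% with that mean. That mean holds the vehicle array of 2 h, so both readings then share a control and these values support nothing. Fewer or more genes pass by construction under the filters and the fold; the other causes were not tested. Mycbp had a log2 ratio of 0.23 and Maml1 of 0.044 without probe sets of shared transcripts, and Socs2 had 0.22 with the median of its probe sets. Of 231 list medians under alternatives 186 moved little and 24 changed sign, and of 1145 ratios of the 164 named genes 986 moved little and 26 changed sign. Higher genes were 44.6% of the genes past 1.5-fold, 49.4% with median centring and 43.4% with quantile normalization. No paired analysis was possible because the difference of 1 h rests on 1 activin and 1 vehicle array and the labels carry no replicate numbers. Signals near the filter value limit the size of ratios in dim genes.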
